A study of Mus musculus with 2 samples.

Results

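The CXC chemokine family was described in stimulated mouse macrophages through 10 genes, which were taken by symbol from the 55536 gene rows of the deposited tables. They are the CXCR3 ligands Cxcl9, Cxcl10 and Cxcl11, the CXCR6 ligand Cxcl16, the neutrophil attractants Cxcl1, Cxcl2, Cxcl3 and Cxcl5, and the platelet chemokines Pf4 and Ppbp. All 10 were found, and they were chosen with earlier results of these data known. Polyadenylated RNA of whole-cell extracts had been sequenced from C57BL/6J bone marrow-derived macrophages, that is, marrow cells differentiated into macrophages in the dish, which had received the stimulus at 100 ng/mL for 300 min. The sample description calls it Lipid A, the lipid part of bacterial endotoxin, whereas the source and treatment fields call it lipoprotein A, so it is named here only as the stimulus. There was 1 group of 2 libraries, biological replicates 1 and 2 in the labels, each with its own biosample record and both with 1 donor record. Whether they were independent cultures is not stated, age and sex were not collected, and an unstimulated group was not analysed here. The values are therefore levels after stimulation and the spread between these libraries, which may be technical.

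CXC chemokines are small secreted proteins, named for a pair of cysteines separated by a single residue, that steer leukocytes through G protein-coupled receptors. The CXCR3 ligands attract activated T cells and natural killer cells and are classic interferon-induced genes. The CXCR2 ligands, Cxcl1, Cxcl2, Cxcl3 and Cxcl5 among them, attract neutrophils and are classic NF-kB targets with unstable mRNAs. Pf4 (Cxcl4) and Ppbp (Cxcl7) are known foremost as the chemokines of platelet granules, and Cxcl16 is made as a membrane protein that also takes up oxidized lipoprotein.

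The promoter sequences of the most abundant member and of the neutrophil attractants are shown first, because they hold the NF-kB and interferon-response letters of these genes. They come from the RefSeq promoter table (GRCm38.p6), which held windows for 7 of the 10 members. Cxcl5, Cxcl11 and Cxcl16 are named only. The 250 bases before the start of Cxcl10 (chr5:92348890-92349139, minus strand), the 250 before Cxcl9 (chr5:92328080-92328329, minus strand), and the stretch from 120 to 31 bases before the starts of Cxcl1 (chr5:90891125-90891214), Cxcl2 (chr5:90903779-90903868) and Cxcl3 (chr5:90785981-90786070, all plus strand) read 5′ to 3′ as follows. Capitals mark matches to the NF-kB consensus and to the core of the interferon-stimulated response element (ISRE, TTCNNTTTC). Both strands were searched, so that the ISRE core appears here as its reverse complement.
Cxcl10: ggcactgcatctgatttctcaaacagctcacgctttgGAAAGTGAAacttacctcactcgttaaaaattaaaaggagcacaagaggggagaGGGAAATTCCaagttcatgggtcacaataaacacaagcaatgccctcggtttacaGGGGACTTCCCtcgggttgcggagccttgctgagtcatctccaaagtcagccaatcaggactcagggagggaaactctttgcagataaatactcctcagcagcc
Cxcl9: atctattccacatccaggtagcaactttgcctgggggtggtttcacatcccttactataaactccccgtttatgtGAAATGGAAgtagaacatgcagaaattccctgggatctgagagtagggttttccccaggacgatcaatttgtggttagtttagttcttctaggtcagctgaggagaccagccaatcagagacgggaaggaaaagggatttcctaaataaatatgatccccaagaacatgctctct
Cxcl1: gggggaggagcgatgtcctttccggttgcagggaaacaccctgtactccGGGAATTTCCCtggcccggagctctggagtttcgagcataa
Cxcl2: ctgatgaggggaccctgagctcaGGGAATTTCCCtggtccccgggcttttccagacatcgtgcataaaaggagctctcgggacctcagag
Cxcl3: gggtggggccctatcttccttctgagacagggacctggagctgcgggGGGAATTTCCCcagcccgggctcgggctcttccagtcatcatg

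Cxcl1, Cxcl2 and Cxcl3 carried the same 11 letters at the match, beginning 71, 97 and 73 bases before their starts, and the consensus matched them on both strands. In Cxcl10 the matches began 159 and 104 bases before the start, the latter with a second, overlapping match. The NF-kB consensus was thus found in 4 of the 7 members, against 8.46% of the 32851 promoter windows in the table. The ISRE core was found in Cxcl9 and Cxcl10, 175 and 213 bases before the start, and in 8.56% of all windows. The palindromic GAS element (TTCNNNGAA) was in none of the 7 and in 8.3% of all windows. AP-1 (TGANTCA) was in Cxcl9, Cxcl10 and Ppbp (7.81% of windows), C/EBP (TTGCNNAA) in Pf4 (10.8%), and the TATA box (TATAAA) in Cxcl3, Cxcl9 and Ppbp (13.6%). Over the full 250 bases Cxcl2 and Cxcl3 were 54.7% identical, Cxcl1 and Cxcl2 49.7%, and Pf4 and Ppbp, whose windows held neither NF-kB nor ISRE letters, 46.0%. A match describes letters and not binding.

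**Figure D1:**
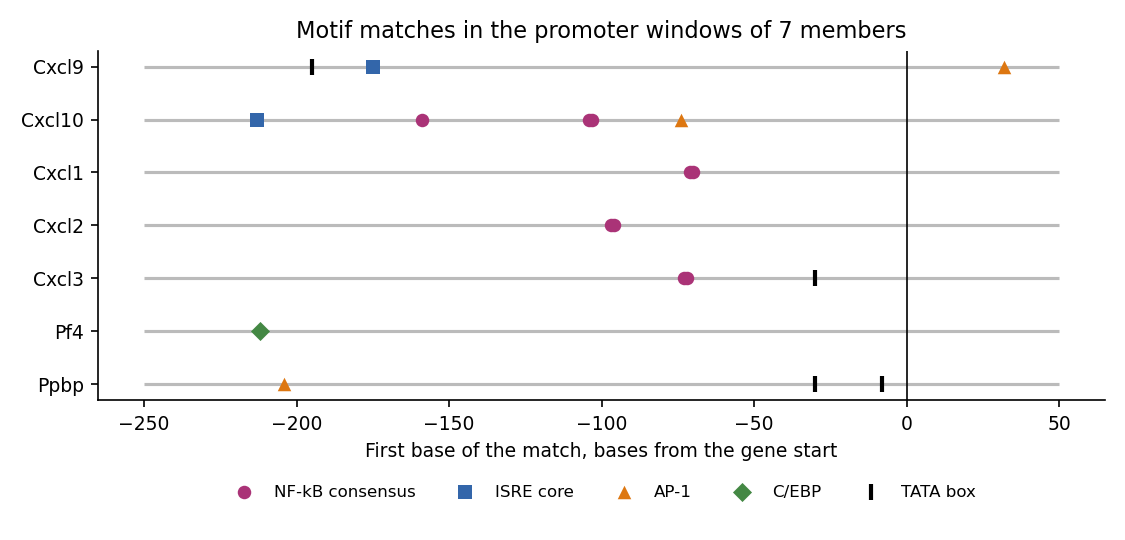
Position of each motif match in the 300-base promoter windows of 7 members, in bases from the RefSeq gene start, with negative values upstream; marker shapes stand for the motif. NF-kB matches lie between 71 and 97 bases upstream in Cxcl1, Cxcl2 and Cxcl3 as first matches and at 104 and 159 in Cxcl10, and ISRE cores lie at 175 in Cxcl9 and 213 in Cxcl10.

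The libraries held 38028201 (replicate 1) and 63649100 (replicate 2) expected counts in gene rows. Macrophage markers were present throughout, with 10 of 10 at 1 TPM in both libraries and summed levels of 17307 and 23372 TPM. TPM are length-scaled transcript levels that add up to a fixed total in each library, and every level compared between genes below is on that scale. Differences between the libraries were taken from expected counts after TMM scaling of library sizes. A two-sided exact binomial test ran over 12226 genes, and a call needed both an adjusted p under 0.05 and a difference of 1.5-fold. That test compares the libraries, allows for counting error alone and passed 8527 genes at any fold.

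At 300 min the family was a single dominant transcript with a long tail. Of the 10 members, 8 reached 1 TPM in both libraries, and Cxcl3 and Cxcl5 did not. Cxcl10 took 85.7% of the members' summed 11519 TPM in replicate 1 and 82.7% of 12369 TPM in replicate 2. By mean TPM the order was Cxcl10, Cxcl9, Pf4, Cxcl16, Cxcl11, Cxcl2, Cxcl1 with Ppbp, Cxcl3 and Cxcl5. Neighbours whose ranges over the libraries overlapped were Cxcl9 and Pf4, Pf4 and Cxcl16, and Cxcl1 and Ppbp, and the order of each of these pairs was opposite in the 2 libraries. The ranges also overlapped for Ppbp and Cxcl3 and for Cxcl3 and Cxcl5, but there the first gene was the higher in each library. At the other steps the ranges of the neighbours did not overlap.

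**Figure D2:**
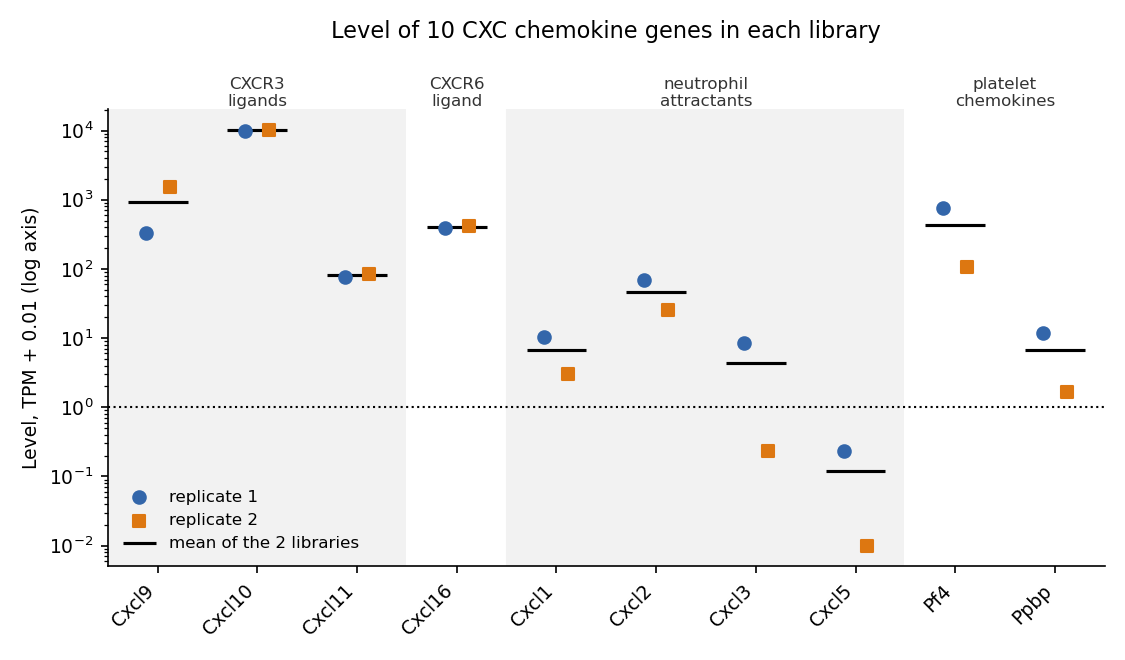
Level of each of the 10 members as TPM + 0.01 on a log axis, by receptor or cell source; blue circles are replicate 1, orange squares replicate 2, black bars the mean, and the dotted line marks 1 TPM. Cxcl10 lies at 9868 and 10226 TPM, and Cxcl5 at 0.22 TPM and 0.

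Cxcl10, which encodes the CXCR3 ligand IP-10 (ENSMUSG00000034855.13, chromosome 5, 92346638 to 92348889, minus strand, mm10), measured 9868 TPM in replicate 1 and 10226 TPM in replicate 2. The mean was 10047 ± 254 TPM (SD, n = 2). It ranked 10th and 9th of all genes by TPM and held 0.528% and 0.56% of all expected counts. The 2 libraries lay close together. From 200680 and 356675 counts the log2 ratio, replicate 2 over replicate 1, was 0.27 with a 95% counting interval of 0.26 to 0.28, and it was not called, being under 1.5-fold. Its protein-coding transcript Cxcl10-201, of 1094 bases and 98 codons, took 98.2% and 99% of the gene's TPM. The remaining 3 transcripts, among them the retained-intron forms Cxcl10-203 and Cxcl10-204, each took at most 1.16%.

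Cxcl9, which encodes the interferon-gamma-induced ligand MIG (ENSMUSG00000029417.9, chromosome 5, 92321347 to 92328079, minus strand), reached 331 TPM in replicate 1 but 1507 TPM in replicate 2. That gave 919 ± 831 TPM (SD, n = 2), an SD nearly as large as the mean. By counts, 21219 and 63894, it was called higher in replicate 2, with a log2 ratio of 1.03 (95% counting interval 1.01 to 1.05). The ratio of TPM was larger, 2.19 on the log2 scale, and it rested on a short transcript. Cxcl9-202, annotated as a retained intron, is 370 bases long. Its first exon begins 1 base after that of the coding Cxcl9-201, and its second exon (92326623 to 92326876) runs on into the intron where the second exon of Cxcl9-201 spans 92326750 to 92326876. Of its bases, 243 lie in exons of Cxcl9-201 (65.7%) and 127 do not.

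Cxcl9-202 was assigned 19.8 counts in replicate 1 and 5251 in replicate 2, or 0.0934% and 8.22% of the gene's counts. Its effective length, the length over which counts are divided, was 110.96 and 131.84 bases, so these counts stood for 7.13 and 968 TPM, or 2.15% and 64.2% of the gene's TPM. The kallisto-layout table, a second quantification by the authors, gave 21.2 and 1245 TPM, or 6.48% and 72.2%. Both quantifications thus put the short form ahead of the coding one in replicate 2 and far below it in replicate 1. Over coding transcripts alone Cxcl9 amounted to 324 TPM in replicate 1 against 539 TPM in replicate 2, a log2 ratio of 0.73. Read coverage along the gene was not analysed here. Among 2100 retained-intron transcripts under 500 bases of genes at 1 TPM in both libraries, 63 had a share at least 20 percentage points higher in replicate 2 and 22 in replicate 1. Among shares higher in replicate 2, that of Cxcl9-202 had the second largest difference, a comparison chosen after its values were seen.

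**Figure D3:**
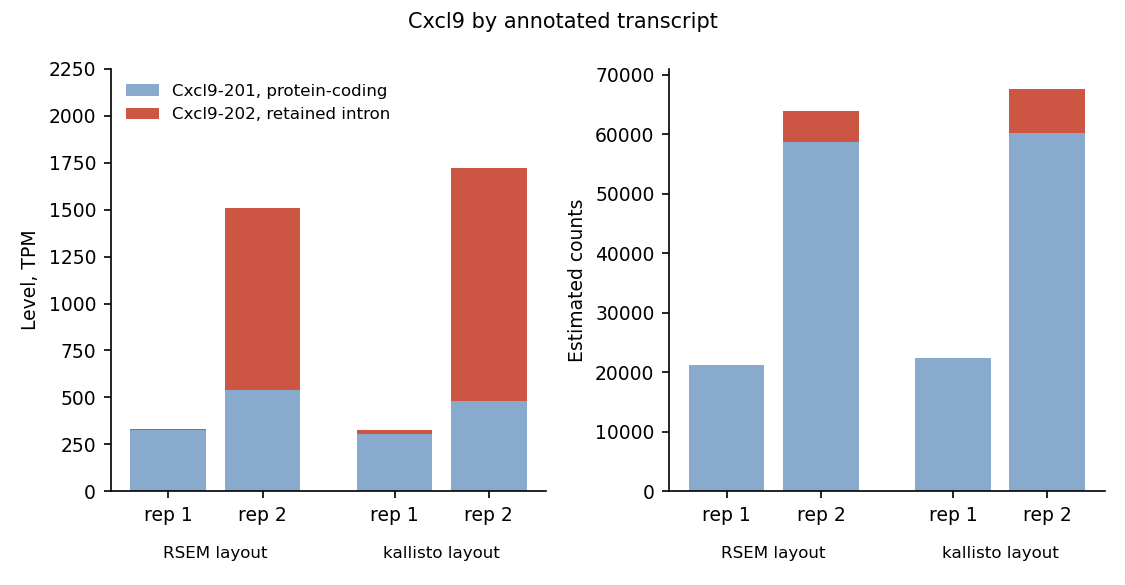
Cxcl9 by annotated transcript, as TPM (left) and as estimated counts (right), for both replicates in the RSEM-layout and the kallisto-layout tables; bars start at 0 and stack the protein-coding Cxcl9-201 (blue) and the retained-intron Cxcl9-202 (red). In replicate 2 Cxcl9-202 makes 64.2% and 72.2% of TPM, from 8.22% of the counts in the RSEM-layout table.

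Cxcl11, named for the third CXCR3 ligand I-TAC (ENSMUSG00000060183.6, chromosome 5, 92359544 to 92365485, minus strand), lay at 76.1 and 84.6 TPM, on average 80.3 ± 5.98 TPM (SD, n = 2). Whether these C57BL/6J cells make the protein was not tested. The annotation lists the locus as a polymorphic pseudogene, a class for loci that code for protein in some genomes of a species and not in others, so its RNA level is no statement on protein. Its transcript Cxcl11-201, annotated as protein-coding with 99 codons, took 86.8% and 90.7% of TPM. Cxcl11-202, of the pseudogene class, took 13.2% and 9.32%. The log2 ratio of 0.26 (0.19 to 0.32) was not called. With the GC and length trend removed it was 0.75 and was called.

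Together the CXCR3 ligands summed to 10275 and 11818 TPM, and the neutrophil attractants to 87.1 and 28.8 TPM. The CXCR3 ligands exceeded the attractants by 6.88 on the log2 scale in replicate 1 and 8.68 in replicate 2, which are ratios of 118 and 410, with a mean log2 ratio of 7.78 ± 1.3 (SD, n = 2). Without Cxcl10 the mean log2 ratio was 4.01, and without Cxcl11, which is counted here as RNA of a polymorphic pseudogene, it was 7.77. The value without Cxcl10 rested mostly on Cxcl9, at 331 TPM in replicate 1 but 1507 TPM in replicate 2. Of the level in replicate 2, 968 TPM were assigned to the retained-intron Cxcl9-202. A permutation of 2 libraries cannot give a p small enough to pass, so no test was run. The order of the sums was the same in both libraries.

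Cxcl16, which encodes the membrane-bound CXCR6 ligand (ENSMUSG00000018920.11, chromosome 11, 70453983 to 70459984, minus strand), lay at 392 and 416 TPM, on average 404 ± 16.7 TPM (SD, n = 2). It is the only member that lies off chromosome 5. The log2 ratio of its counts was 0.38 (0.35 to 0.40) and was not called. The coding Cxcl16-201, of 246 codons, took 61.9% of TPM in replicate 1 and 72.8% in replicate 2. Cxcl16-202, annotated as a target of nonsense-mediated decay, took 36.5% and 26.3%, so over coding transcripts alone the gene stood at 243 and 303 TPM. Of the enzymes that release the ligand from the membrane, Adam10 had 29.9 and 25.8 TPM and Adam17 had 96.6 and 81.8 TPM, neither of them called.

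The neutrophil attractants were low and lay higher in replicate 1. Cxcl2 (MIP-2; ENSMUSG00000058427.10, chromosome 5, 90903871 to 90905938, plus strand) led them with 68.1 TPM in replicate 1 against 25.5 TPM in replicate 2, a mean of 46.8 ± 30.1 TPM (SD, n = 2). From 1396 and 826 counts it was called higher in replicate 1, with a log2 ratio of -1.32 (-1.44 to -1.19; exact binomial test, adjusted p = 1.9e-99). Cxcl1 (KC; ENSMUSG00000029380.11, chromosome 5, 90891241 to 90893115, plus strand) had 10.4 and 3.06 TPM from 179 and 91 counts. It too was called, with a log2 ratio of -1.51 (-1.92 to -1.17; exact binomial test, adjusted p = 5.3e-17). Their ranks by size of the ratio among the 12226 genes were 680 and 388, and 95% of those genes had an absolute log2 ratio under 1.36.

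Cxcl3 (ENSMUSG00000029379.10, chromosome 5, 90786103 to 90789600, plus strand) was at 8.4 TPM in replicate 1 but at 0.22 TPM in replicate 2. Its counts were 155 (exact Poisson interval 132 to 181) and 7 (2.81 to 14.4), and it did not pass the filter on low counts. The scaled counts differed by 32.7-fold. Without the filter its log2 ratio was -4.62 (exact binomial test, adjusted p = 2.6e-50). Cxcl5 (LIX; ENSMUSG00000029371.7, chromosome 5, 90759360 to 90761624, plus strand) was covered by 7 counts (0.22 TPM) in replicate 1 but by 0 in replicate 2. For that 0 the exact Poisson interval reached up to 3.69 counts. A floor set separately at 3 counts stood for 0.055 TPM in replicate 2. The kallisto-layout table gave Cxcl5 14 and 7.63 counts, so that it was not at 0 there. Count intervals and floors cover counting error only.

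Cxcl2 and Cxcl3 are close copies, with coding sequences 89.7% identical and a longest shared run of 110 bases between their leading transcripts. For Cxcl1 and Cxcl2 the coding identity was 75.7% and the run 23 bases. The deposited posterior SD of the counts was 0 for Cxcl1, Cxcl2, Cxcl3 and Cxcl5 in both libraries, so the quantifier divided no reads of theirs with another gene. The retained-intron transcript Cxcl2-204, of 397 bases, took 6.18% of the TPM of Cxcl2 in replicate 1 and 14.5% in replicate 2, on few counts (1.01% and 2.89% of the gene's).

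Cxcl2 and Cxcl1 also carried the densest ATTTA letters of the family in their 3′ UTRs, the core of the AU-rich element that marks unstable cytokine mRNAs. The elements were counted after other values had been seen. The 30 bases richest in them are shown for 3 attractants and, as contrast, for Cxcl10, 5′ to 3′ with the core in capitals, from the GENCODE M21 transcripts (3′ UTR bases 79 to 108 of Cxcl1, 123 to 152 of Cxcl2, 181 to 210 of Cxcl3 and 389 to 418 of Cxcl10).
Cxcl1: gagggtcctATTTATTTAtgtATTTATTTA
Cxcl2: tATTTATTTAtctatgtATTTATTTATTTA
Cxcl3: caagatggcatcttATTTAatgtttATTTA
Cxcl10: ttttatttcagatgtaagactacaaATTTA

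Cxcl2 held 11 cores in 734 bases (15 per kb), Cxcl1 held 7 in 592 bases (11.8 per kb) and Cxcl3 held 5 in 645 bases (7.75 per kb). Of 9302 genes at 1 TPM in both libraries, 0.376% were as dense as Cxcl2, 0.817% as dense as Cxcl1 and 2.38% as dense as Cxcl3, and the median was 1.23 per kb. Cxcl5 had 4.5 per kb and Pf4 had 8.13 per kb from a single core in a 3′ UTR of 123 bases. The remaining members lay between 0.821 (Cxcl11) and 2.74 per kb (Cxcl10). Zfp36 (tristetraprolin), which binds such elements and shortens the life of the mRNA, was at 268 TPM in replicate 1 against 444 in replicate 2 and was called higher in replicate 2 at a log2 ratio of 0.92. Zc3h12a (Regnase-1), an RNase of inflammatory mRNAs, had 31.7 and 34.9 TPM and was not called. The part of these regulators in the levels was not tested.

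Pf4 and Ppbp showed the largest differences between the libraries among the members that passed the filter. Pf4 (platelet factor 4; ENSMUSG00000029373.7, chromosome 5, 90772435 to 90773383, plus strand) stood at 753 TPM in replicate 1 but at 105 TPM in replicate 2, a mean of 429 ± 458 TPM (SD, n = 2). Ppbp (pro-platelet basic protein; ENSMUSG00000029372.7, chromosome 5, 90768518 to 90770063, plus strand) had 11.8 and 1.68 TPM. Pf4 was thus far more abundant than Ppbp in both libraries, by 63.7-fold and 62.4-fold of TPM.

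From 5861 and 1475 counts the log2 ratio of Pf4 was -2.55 (95% counting interval -2.64 to -2.47). From 238 and 58 counts that of Ppbp was also -2.55 (-3.04 to -2.18; exact binomial test, adjusted p = 5.7e-44). They ranked 46 and 47 of 12226 genes by size of the ratio, and 99% of the genes lay under 1.99. Both were called higher in replicate 1. In a bulk sample, fewer cells of a type and less RNA per cell cannot be told apart.

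Marker lists of other cells differed between the libraries, some in the direction of Pf4 and Ppbp and some in the opposite direction. Of 14 megakaryocyte and platelet markers, none reached 1 TPM in both libraries, and their levels summed to 9.65 TPM in replicate 1 against 2.81 TPM in replicate 2. None was at 0 in both. Clec1b, the podoplanin receptor CLEC-2, was highest at 2.44 and 0.95 TPM, followed by F2rl2 (0.92 and 0.69 TPM). Of the 5 that passed the count filter, 4 were called higher in replicate 1, against 18.0% of all genes tested. Pf4 alone therefore exceeded the sum of that list by far in both libraries.

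Of 12 neutrophil markers, 4 reached 1 TPM in both libraries, and the sum of the list was 518 and 27 TPM. Among the 5 that passed the filter, 4 were called higher in replicate 1, against 18.0% of all genes tested. S100a9 (316 and 10.2 TPM) and S100a8 (127 and 5.63 TPM) led, while Ly6g was at 0 in both and Cxcr2 at 0.04 and 0.03 TPM. Monocyte markers summed to 175 and 137 TPM, with 5 of 6 at 1 TPM, led by Vcan (68.7 and 73.5 TPM). Here 3 of 6 were called higher in replicate 1, against the same 18.0%. Endothelial markers summed to 27.1 and 81.5 TPM with 4 of 6 at 1 TPM, led by Kdr (20 and 67.6 TPM) and Vwf (4.08 and 8.97 TPM). Among the 4 that passed the filter, 2 (Kdr and Vwf) were called higher in replicate 2, against 15.5% of all genes tested, and none higher in replicate 1. T cell markers had 1 of 5 at 1 TPM and summed to 37.4 and 57.2 TPM. Nearly all of that sum was Lck (37.3 and 57.2 TPM), which was called higher in replicate 2. Cd2 came next at 0.09 and 0.06 TPM, and Cd3g was at 0. No member of the stromal list (8 genes, 2.15 and 1.61 TPM, led by Pdgfrb and Col1a1, Lepr at 0) or of the B cell list (5 genes, 1.55 and 0.65 TPM, led by Cd79b) reached 1 TPM in both. In the stromal list 1 gene was called in each direction, and in the B cell list 1 was called higher in replicate 1. The part of these cells in the levels of Pf4, Ppbp, Cxcl1, Cxcl2 and Cxcl3 was not tested.

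In all, 8 of the 10 members passed the count filter, and 5 were called, 1 higher in replicate 2 (Cxcl9) and 4 higher in replicate 1 (Cxcl1, Cxcl2, Pf4 and Ppbp). Over all 12226 genes 33.5% were called, 15.5% higher in replicate 2 and 18.0% higher in replicate 1, with a median log2 ratio of -0.01. A call alone therefore says little about a member. A trend of the ratios with GC content and transcript length, fitted together, was also removed. The log2 ratios were then -0.82 for Cxcl2, -1.10 for Cxcl1, -2.38 for Pf4, -1.85 for Ppbp and 1.37 for Cxcl9, with each call kept. GC content and length were not separated.

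**Figure D4:**
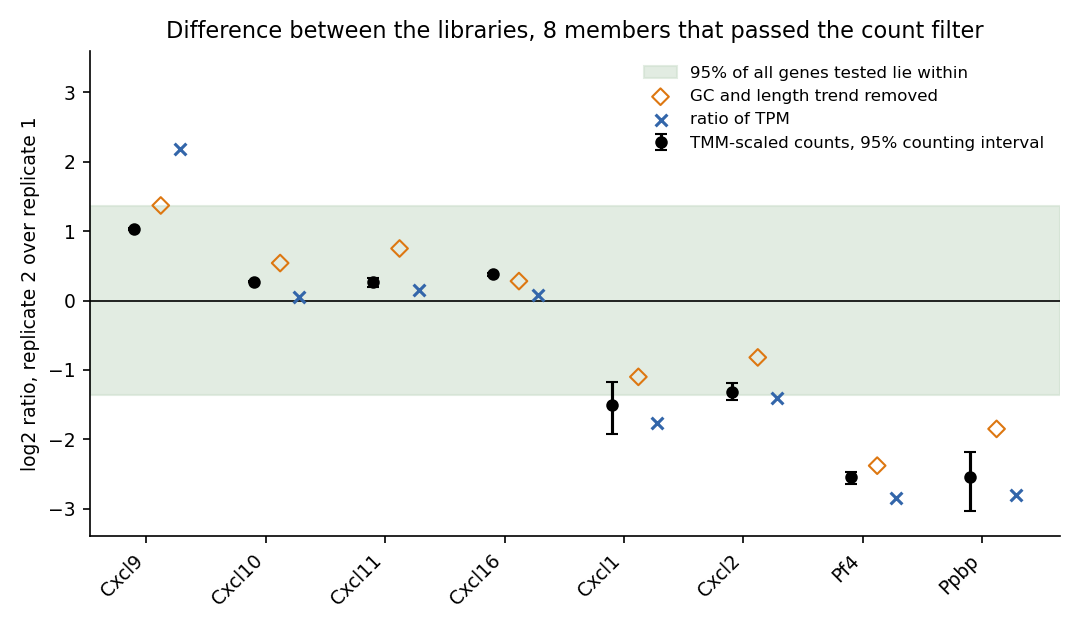
Log2 ratio of replicate 2 over replicate 1 for the 8 members that passed the count filter, from TMM-scaled counts with 95% counting intervals (black), with the GC and length trend removed (orange diamonds) and from TPM (blue crosses); 95% of all genes tested lie within the shaded band of 1.36 either side of 0. Pf4 and Ppbp lie below the band by every measure, and Cxcl9 lies at 1.03 by counts and 2.19 by TPM.

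The members on chromosome 5 lay in a pair of clusters 1.42 Mb apart. The first, from Cxcl5 to Cxcl2 (90759360 to 90905938, 147 kb), held 11 gene rows, of which 6 were the attractants with Pf4 and Ppbp. The remaining 5, Cxcl15 among them, had 0 counts in both libraries. Its members summed to 852 TPM in replicate 1 against 135 TPM in replicate 2, and each of the 6 had a lower level in replicate 2. The second cluster, from Cxcl9 to Cxcl11 (92321347 to 92365485, 44.1 kb), held these 3 genes alone, with 10275 and 11818 TPM. Each had a higher level in replicate 2, but only Cxcl9 was called. The log2 ratios of TPM were 0.05 for Cxcl10 and 0.15 for Cxcl11, against 2.19 for Cxcl9, which rested on its short transcript. How often neighbouring genes share a direction was not examined.

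Receptors of these ligands were scarce. Of 10 receptor genes, 2 reached 1 TPM in both libraries. Cxcr3, the receptor of Cxcl9, Cxcl10 and Cxcl11, had 1.48 and 3.34 TPM and was called higher in replicate 2 (log2 ratio 1.33; exact binomial test, adjusted p = 1.3e-10). Cxcr4, the Cxcl12 receptor, had 1.56 and 4.55 TPM and was called higher in replicate 2 (1.71; exact binomial test, adjusted p = 3.1e-19). Cxcr5 (0.15 and 0.26 TPM) was not called, and Cxcr6 (0.52 and 0.04 TPM) and Cxcr2 did not pass the filter. Cxcr1 and the scavenging receptors Ackr1, Ackr2, Ackr3 and Ackr4 had 0 counts in both. The 5 other CXC ligands were near or at 0, with Cxcl14 (0.13 and 0.08 TPM) and Cxcl12 (0.1 and 0.05 TPM) highest and Cxcl13, Cxcl15 and Cxcl17 at 0 in both libraries.

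Of 6 shedding and cleaving enzymes 3 reached 1 TPM in both libraries. Among the 5 that passed the filter, 3 were called, all higher in replicate 1, against 18.0% of all genes tested. Mmp12, the macrophage elastase, which trims CXC chemokines, had 239 and 135 TPM (log2 ratio -0.87). Dpp4, which clips the N-terminus of CXCR3 ligands, had 0.61 and 0.23 TPM (-1.39), and the gelatinase Mmp9 had 0.71 and 0.45 TPM (-1.65). Ctsg, the neutrophil cathepsin G, had 0.22 and 0.03 TPM and did not pass the filter.

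All 10 regulators reached 1 TPM in both libraries, with 3 called higher in replicate 2 and none higher in replicate 1. Over all genes tested, 15.5% were called higher in replicate 2 and 18.0% higher in replicate 1, so these calls alone say little. Irf1, an activator of CXCR3 ligand genes, was highest at 700 and 1026 TPM and was not called (log2 ratio 0.30). Stat2 (357 and 420 TPM) and Irf9 (68.3 and 77.9 TPM), subunits of the interferon-activated complex ISGF3, were not called either. The NF-kB subunit Rela had 101 and 412 TPM from 4614 and 15119 counts. It was called at a log2 ratio of 1.15 by counts, a smaller difference than by TPM. Nfkb1 (238 and 207 TPM) and the coactivator Nfkbiz (121 and 125 TPM) were not called. Elavl1, which binds and stabilizes AU-rich mRNAs, had 50.7 and 51.6 TPM and was not called.

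**Figure D5:**
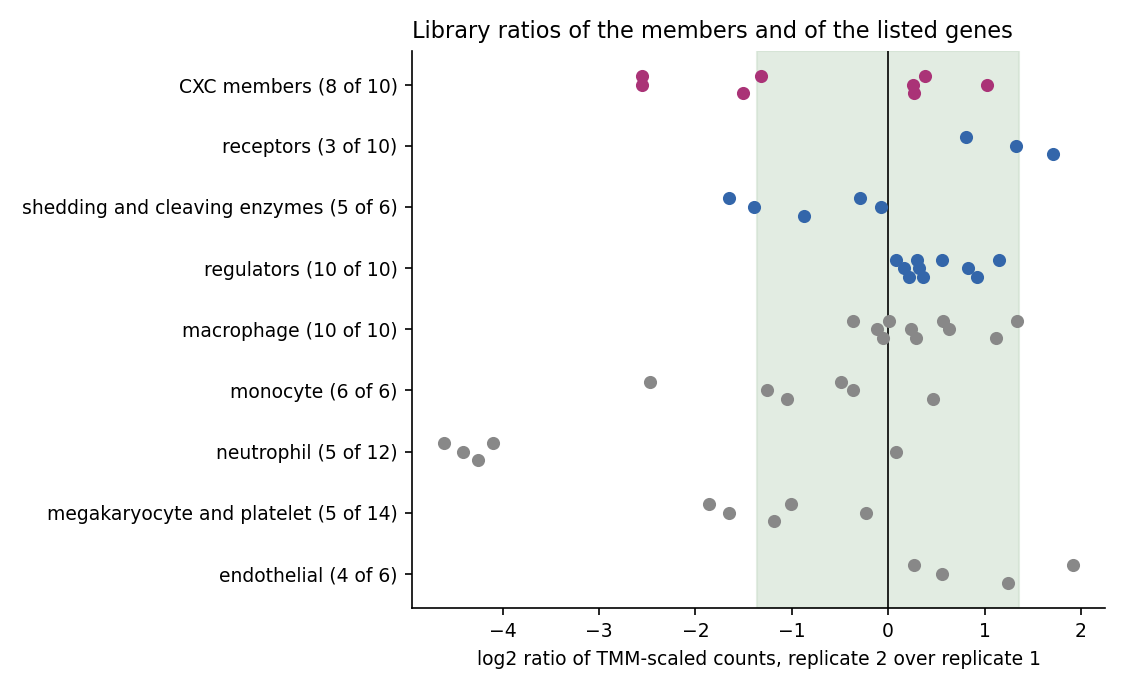
Ratio between the libraries (log2, replicate 2 over replicate 1, TMM-scaled counts) of each gene that passed the count filter among the CXC members (purple), the pathway lists (blue) and the cell type markers (grey), with the number that passed of the number listed; 95% of all genes tested lie within the shaded band. Of 5 neutrophil markers, 4 lie at -4.10 or lower, further left than Pf4 and Ppbp at -2.55.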

How the data were processed

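The authors deposited, per library, a gene and a transcript table in the column layout of RSEM and a transcript table in that of kallisto, on mm10 with GENCODE M21 per the file headers and accompanying notes. Strand use, the aligner and the quantifier versions were not given in the sources used here. Deposited expected counts are estimated reads with shared reads divided. Deposited TPM are scaled by effective length over all rows. The percent column the authors deposited is a transcript's share of its gene's TPM. The other deposited values used are the posterior SD of the counts and the posterior mean TPM. The 26345 rows that are not genes (tRNA, spike-ins, phiX174; 0.132% and 0.0882% of expected counts) were left out.

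Expected counts were rounded. Genes were kept by filterByExpr and scaled by TMM in edgeR 4.0.16 (R 4.3.3); DESeq2 1.42.0 size factors were an alternative. Log2 ratios use a prior count of 2. Each gene was compared by a two-sided exact binomial test (scipy 1.17.1) with Benjamini-Hochberg adjustment over all genes kept. Effective library sizes differed by 1.48-fold. The test was tested on simulated Poisson counts with 200 of 12226 genes changed, of which 187 were called. These counts held counting error alone, so the wider spread between the real libraries was not simulated. A first requirement on all changed genes at each fold was not met, with 13 missed, none above 143 summed counts. It was then limited to genes with 100 or more, where 2 of 173 were missed and it was met. Levels are mean ± SD over 2 libraries.

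Motifs were searched in RefSeq promoter windows (GRCm38.p6), and identities come from global alignments (Biopython 1.88). The protein comparison that was planned was not run. The members and lists were chosen with earlier results of these data known. Named were all members, all pathway genes, and of each marker list the 2 highest and those at 0. Values of some single genes that this rule takes are left out here.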

Additional observations from a re-analysis of the deposited data

How the results depend on the processing

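Of 56 member ratios under other scalings, filters, tables and units, 54 kept their direction and their call, or, for ratios of TPM, their size to within 1.5-fold. The exceptions were Cxcl11, called at 0.75 with the GC and length trend removed, and Cxcl9, at 2.19 by TPM. Members called numbered 5, and 5 to 7 under the alternatives, the most with no filter on low counts. Genes called fell from 4097 to 1603 at 2-fold and lay between 3284 and 4740 otherwise. Scaling by total counts shifted the median log2 ratio of all genes by -0.178. Members at 1 TPM in both libraries numbered 8, from 6 (threshold of 5 TPM) to 9 (replicate 1 alone). CXCR3 ligands over attractants, 7.78, was 4.01 without Cxcl10 and 6.88 to 8.68 by single library; over coding transcripts alone, an alternative added after seeing the data, it was 7.87. Members led by a coding transcript numbered 8 in both libraries, 9 in the kallisto-layout table, and 8 and 10 by single library. Of 60 mean levels, 7 moved beyond 1 SD, for Cxcl10, Cxcl11 and Cxcl16, whose SD was small. No paired analysis was possible because the series has 1 group. With 2 libraries and no unstimulated group, no difference could be set against the usual spread between cultures, and Cxcl3 and Cxcl5 are limited by counts of 7 or fewer in replicate 2.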
